A study of Mus musculus with 12 samples.

Results

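The genes described here are the Wnt ligands, the Frizzled receptors and the proteins that work directly with them, 36 of the 20114 single-locus genes in the count table. They were chosen by name: every gene with a symbol beginning Wnt or Fzd and a number, the Lrp co-receptors Lrp5 and Lrp6, the alternative receptors Ror1, Ror2 and Ryk, and Porcn and Wls, which act in ligand export. The set holds 19 Wnt ligands, 10 Frizzled receptors, 2 Lrp co-receptors, 3 alternative receptors and 2 export genes. RNA was sequenced from sorted primary mammary epithelial cells of adult female mice aged 9 weeks, whose mixed background comes from 129X1/SvJ, C57BL/6 and Swiss Webster stock. Recombined cells (4 libraries) came from mT-mG/SmoM2;MMTV-Cre mice, were labelled SmoM2 positive and carried EGFP. Unrecombined cells (4 libraries) had the same genotype, were labelled SmoM2 negative and carried tdTomato. Wild type cells (4 libraries) came from mT-mG/SmoM2;+ mice with no Cre and were also red. All 3 groups therefore carry the SmoM2 allele, a constitutively active form of the Hedgehog transducer Smoothened, and the mT-mG reporter, which turns from red to green where Cre has acted. Cre is driven by the mouse mammary tumour virus promoter, so green cells are those in which that promoter has been active. No green cells without SmoM2 were included, so SmoM2, the action of Cre, the colour gate and the kind of cell cannot be told apart. The labels do not say which animals gave which library, so p values measure the spread between these libraries.

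Wnt proteins are lipid-modified secreted ligands. Porcn attaches the lipid and Wls carries the ligand to the cell surface. Frizzled receptors bind the ligand together with Lrp5 or Lrp6 to stabilise beta-catenin, while Ror1, Ror2 and Ryk take part in signalling that does not need beta-catenin. In the mammary gland, Wnt signalling is known for its part in maintaining basal stem cells and in side branching under progesterone.

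Total counts per library lay between 19581993 and 34779433. Values per library are in CPM, counts relative to the size of the library after TMM scaling, and a gene was called where the edgeR quasi-likelihood test gave an adjusted p under 0.05 over the 14039 loci tested. As a check of the groups, the Hedgehog target Ptch1 had 132, 459, 337 and 808 CPM in recombined libraries 1 to 4, against 24.8 to 61.2 CPM in unrecombined and 34.4 to 38.1 CPM in wild type libraries. Markers of other cells differed between the groups. The summed level of 16 basal markers was 2677 to 9248 CPM in recombined, 993 to 1727 CPM in unrecombined and 1426 to 1702 CPM in wild type libraries. Of the 16, 14 were called higher in the recombined group against wild type, as were 4.17% of all loci. Tagln, among the 14, was counted in 1 entry with Bace1, Pcsk7 and Rnf214. The sum of 15 fibroblast markers was 370.1 to 1023 CPM in recombined, 5932 to 7818 CPM in unrecombined and 2681 to 3877 CPM in wild type libraries. In the same comparison 11 of the 15 were called lower, as were 2.38% of all loci. The sum of 12 markers of hormone-sensing luminal cells was 745 to 2014 CPM, 2910.1 to 4756 CPM and 3279 to 6379 CPM in recombined, unrecombined and wild type libraries. Of these 12, 8 were called lower in recombined than in wild type cells. In that comparison 4 of 10 tested macrophage and dendritic markers (Lyz1 and Lyz2 share 1 entry) were called lower, and of 7 pericyte markers 2 higher and 1 lower. No tested marker of endothelial, luminal progenitor, lymphocyte, adipocyte, Schwann or salivary gland cells was called in it. No basal, hormone-sensing luminal or fibroblast marker was at 0 in any group. Salivary gland markers summed to over 1000 CPM in 5 libraries (recombined 1 and 2, unrecombined 1 and 2, wild type 2) and to 41.8 to 80.0 CPM in the others. The part of these differences in the results that follow was not tested, and in sorted bulk samples fewer cells of a type and less RNA per cell cannot be told apart.

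**Figure D1:**
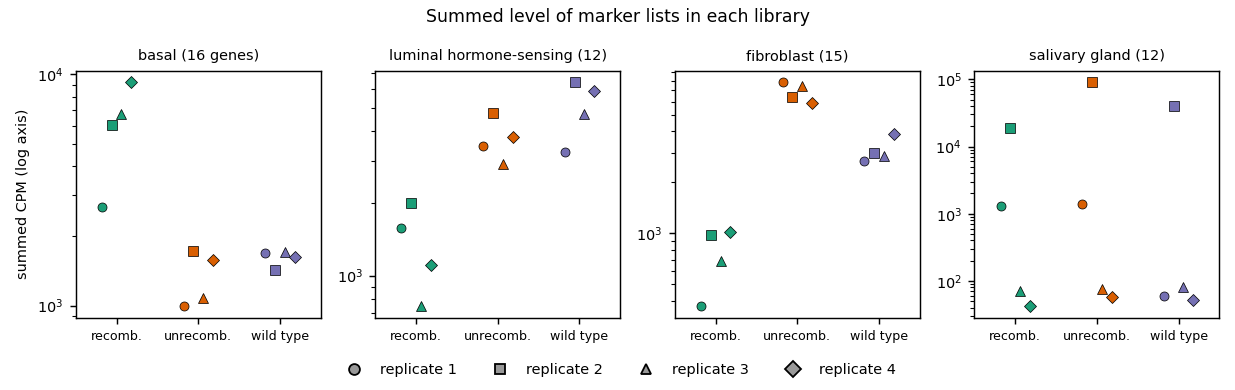
Summed CPM of 4 marker lists (log axis) in each library of the recombined, unrecombined and wild type groups. Symbols mark replicate numbers. The 4 recombined libraries lie above all others for basal markers and below all others for hormone-sensing luminal and fibroblast markers, and 5 libraries stand out for salivary gland markers.

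Of the 36 genes, 27 had enough reads to be tested: 11 Wnt ligands, 9 Frizzled receptors and all 7 others. In recombined against wild type cells, 3 were called higher, all of them Frizzled receptors (Fzd1, Fzd7 and Fzd3), and 1 was called lower, the ligand Wnt2. The calls in the higher direction are 11.1% of the tested members, against 4.17% of all loci tested, and those in either direction 14.8%, against 6.55% (2.38% lower). In recombined against unrecombined cells, 2 members were called higher (Fzd7 and Fzd1) and 1 lower (Wnt2), or 7.41% of the members higher against 3.08% of all loci, and 11.1% in either direction against 5.22% (2.14% lower). Wnt2 had no read in recombined libraries and passed the filter on low counts only through the groups where it had reads, so nothing is read from its place in these shares. No member was called in unrecombined against wild type cells, where the share over all loci was 0%. The median log2 fold change of the tested members was 0.47 in recombined against wild type cells and -0.02 over all loci, and 0.72 in recombined against unrecombined cells and -0.01 over all loci. Both medians of the members were the same with Wnt2 set at the bound given with its values. The comparisons share libraries and are given side by side.

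Recombined and unrecombined libraries of the same number deviated together from their group means, so the replicate number was also used as a block. With the block over all 12 libraries, 6 members were called in recombined against unrecombined cells: Fzd1, Fzd3, Fzd7, Lrp5 and Ryk higher and Wnt2 lower. With the block and only these 2 groups in the fit, 6 were called higher (Fzd1, Fzd3, Fzd5, Fzd7, Lrp5 and Wnt10a), and Wnt2 was not called (adjusted p = 0.0525).

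**Figure D2:**
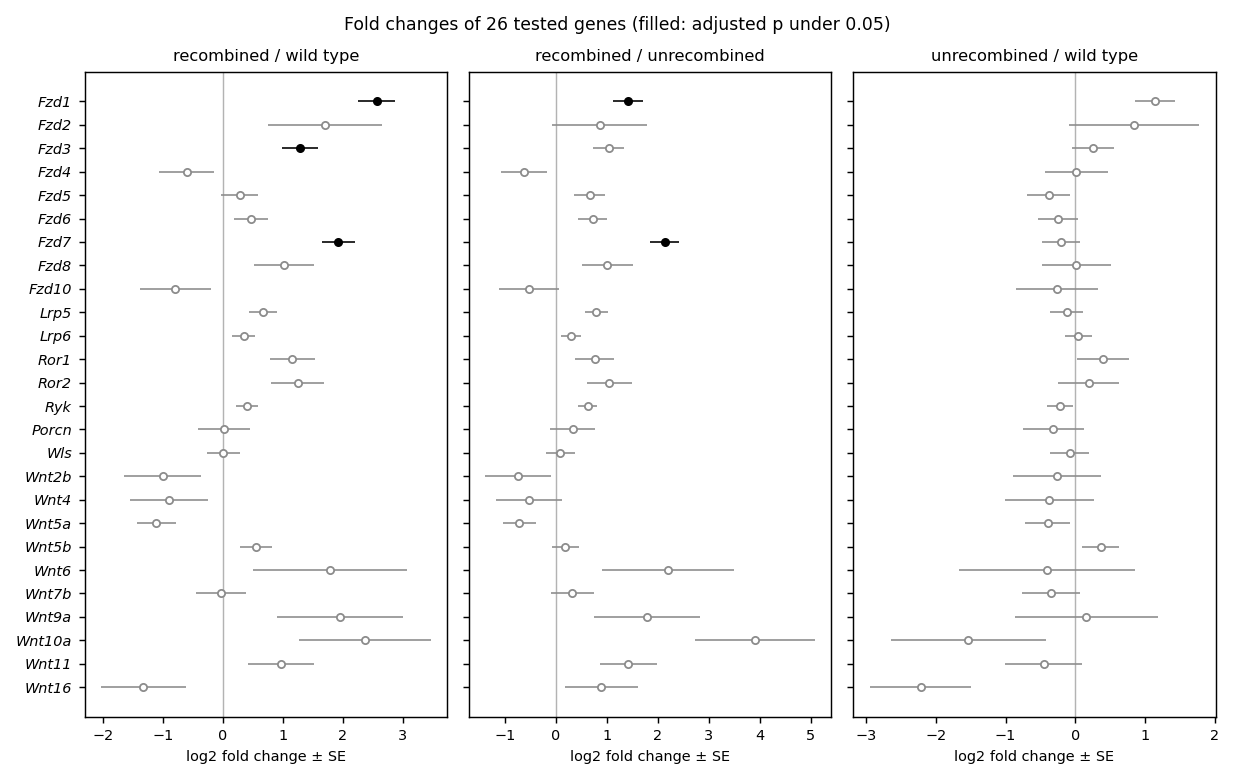
Log2 fold change (x axis) with its SE for every tested member except Wnt2, which had no read in recombined libraries, in recombined over wild type, recombined over unrecombined and unrecombined over wild type cells. Filled points have an adjusted p under 0.05 in the fit without the replicate block: Fzd1, Fzd3 and Fzd7 in the first panel and Fzd1 and Fzd7 in the second.

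Fzd7 encodes a receptor known for its part in basal mammary stem cells. Fzd7 (chromosome 1, listed start 59538990 in mm9) had 215, 309, 507 and 551 CPM in recombined libraries 1 to 4. It had 77.1, 77.2, 77.3 and 127 CPM in unrecombined libraries and 130.1, 88.5, 103 and 94.3 CPM in wild type libraries. Every recombined library lay above every library of both other groups, and the lowest recombined value was 215 CPM against a highest value of 130.1 CPM elsewhere. Fzd7 was 3.81-fold higher in recombined cells than in wild type cells (log2 fold change 1.93 ± 0.281 SE, adjusted p = 0.0012) and 4.41-fold higher than in unrecombined cells (2.14 ± 0.283, adjusted p = 0.000466). Unrecombined libraries 1 to 3 lay between 77.1 and 77.3 CPM, and library 4 stood above them.

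Fzd1, a receptor closely related to Fzd7 in sequence, showed a graded pattern over the groups. Fzd1 (chromosome 5, listed start 4753838) had 88.5, 148, 201 and 292 CPM in recombined libraries, 67.8, 67.6, 49.7 and 88.2 CPM in unrecombined libraries, and 29.1, 27.1, 31.7 and 35.4 CPM in wild type libraries. No groups overlapped, although recombined library 1 at 88.5 CPM was next to unrecombined library 4 at 88.2 CPM. Fzd1 was 5.92-fold higher in recombined cells than in wild type cells (log2 fold change 2.56 ± 0.304, adjusted p = 0.000284) and 2.67-fold higher than in unrecombined cells (1.42 ± 0.292, adjusted p = 0.0104). In unrecombined against wild type cells the log2 fold change was 1.15 ± 0.291, which did not pass the edgeR test (adjusted p = 0.46). Of 27 alternative fits it passed in 1, the DESeq2 test (adjusted p = 0.0413).

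Fzd3, a receptor known for its part in planar cell polarity and axon guidance, had 119.8, 194, 184 and 395 CPM in recombined libraries. It had 101, 86.7, 109.8 and 138 CPM in unrecombined libraries and 112, 66.2, 100 and 87.7 CPM in wild type libraries. The recombined libraries were all above the wild type ones, by a narrow margin for library 1, and overlapped the unrecombined ones. Fzd3 was 2.44-fold higher in recombined cells than in wild type cells (log2 fold change 1.29 ± 0.302, adjusted p = 0.0206). Against unrecombined cells its log2 fold change was 1.03 ± 0.30 (adjusted p = 0.0646), and it was called in both fits with the replicate block. The call of Fzd3 against wild type was lost without wild type library 2 (log2 fold change 1.16, adjusted p = 0.0683) or library 4 (1.27, adjusted p = 0.0683), and without recombined library 4 the value was 0.86 (adjusted p = 0.0468). It was also lost with only these 2 groups in the fit (1.29, adjusted p = 0.0512; with the replicate block 1.18, adjusted p = 0.0708).

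The labels give each library a number that begins with 23 or 24, and what this number marks is not stated. Fzd1 and Fzd7 rose from recombined library 1 to 4, as did the summed basal markers (2677, 6023, 6752 and 9248 CPM). Recombined libraries 3 and 4, whose numbers begin with 24, thus held the 2 highest values of Fzd1, of Fzd7 and of the basal sum. The part of the library number or of the basal level in this was not tested. Without these libraries Fzd7 remained called, with log2 fold changes of 1.33 against wild type (adjusted p = 0.0201) and 1.55 against unrecombined cells (adjusted p = 0.00599). Fzd1 without them was called against wild type (1.94, adjusted p = 0.00265) and not against unrecombined cells (0.80, adjusted p = 0.169). Fzd3 without them was not called against wild type (0.78, adjusted p = 0.186), nor among the libraries numbered 23 alone (0.77, adjusted p = 0.372). Among the libraries numbered 23 alone, Fzd7 had 1.30 against wild type (adjusted p = 0.0589) and 1.78 against unrecombined cells (adjusted p = 0.0198), and Fzd1 had 2.02 (adjusted p = 0.0246) and 0.82 (adjusted p = 0.354). Only 1 wild type library is numbered 24, so no comparison with wild type was made within that series. In the 7 libraries with under 1000 CPM of salivary gland transcripts, an alternative chosen after seeing the data, the log2 fold changes against wild type were 2.98 for Fzd1 (adjusted p = 0.00214), 2.31 for Fzd7 (adjusted p = 0.00313) and 1.57 for Fzd3 (adjusted p = 0.0248).

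**Figure D3:**
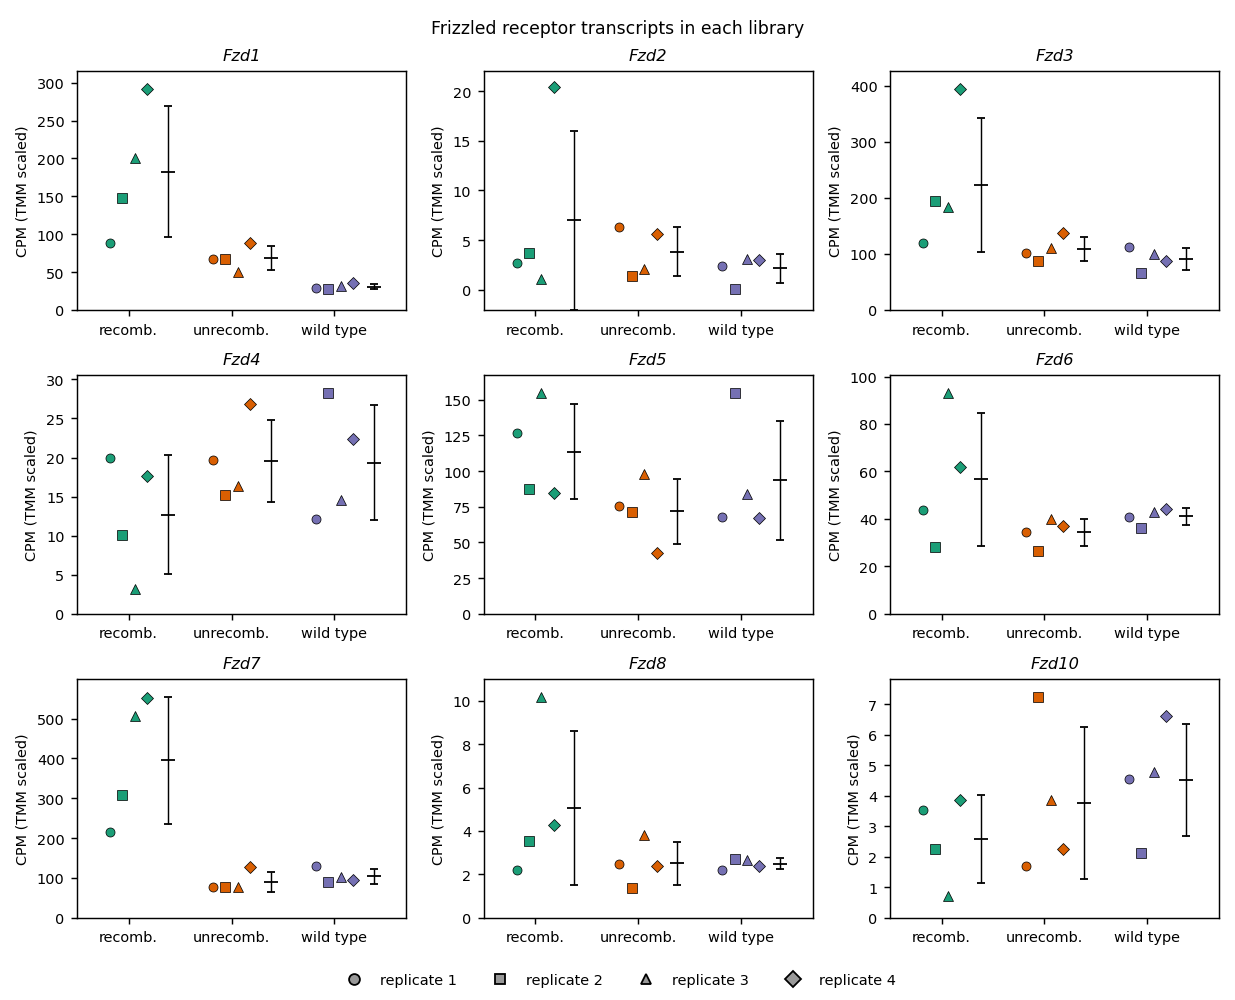
CPM of the 9 tested Frizzled genes in each library, with the mean and SD of each group (bars) to the right of the points and a symbol for each replicate number. For Fzd1 and Fzd7 all recombined libraries lie above all others, and for Fzd1 the unrecombined libraries lie above the wild type ones.

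The starts of Fzd1, Fzd7 and Wnt2 are shown because these genes were called in both comparisons with recombined cells, Fzd1 and Fzd7 higher and Wnt2 lower. Fzd3, the other called gene, was among the 11 members not found among the promoters used here. The sequences are from RefSeq on GRCm38.p6, a later build than the mm9 of the counts, and run from 250 bases before the gene start to 50 bases after it, 5′ to 3′. Capitals mark the GC box GGGCGG on either strand, and overlapping matches are each counted.
Fzd1, chr5:4758167-4758466, minus strand: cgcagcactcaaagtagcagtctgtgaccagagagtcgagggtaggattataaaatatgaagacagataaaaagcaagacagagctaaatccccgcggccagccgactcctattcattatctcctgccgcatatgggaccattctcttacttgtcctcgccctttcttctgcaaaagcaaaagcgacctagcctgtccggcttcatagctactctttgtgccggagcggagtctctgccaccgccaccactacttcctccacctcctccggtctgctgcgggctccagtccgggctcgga
Fzd7, chr1:59481897-59482196, plus strand: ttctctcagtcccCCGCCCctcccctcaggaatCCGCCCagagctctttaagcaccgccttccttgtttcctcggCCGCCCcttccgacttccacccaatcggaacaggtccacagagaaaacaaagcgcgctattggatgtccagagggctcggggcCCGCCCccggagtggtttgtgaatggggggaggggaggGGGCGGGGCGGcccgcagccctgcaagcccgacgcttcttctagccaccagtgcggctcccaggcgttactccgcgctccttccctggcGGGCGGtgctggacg
Wnt2, chr6:18030396-18030695, minus strand: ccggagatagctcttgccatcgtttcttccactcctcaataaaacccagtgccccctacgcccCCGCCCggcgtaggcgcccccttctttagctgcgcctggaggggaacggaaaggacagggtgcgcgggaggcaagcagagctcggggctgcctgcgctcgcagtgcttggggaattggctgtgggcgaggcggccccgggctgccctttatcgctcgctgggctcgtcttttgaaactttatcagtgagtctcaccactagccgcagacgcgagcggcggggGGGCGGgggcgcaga
Fzd7 held 7 GC boxes and 66.7% G and C, Fzd1 held none and 54%, and Wnt2 held 2 and 65.7%. The GC box was in promoters of 21 of the 25 members found among the promoters used here. It was in 35.7% of the 32851 mouse promoters of the same length that were used. Their median G and C content was 52.7%. These 32851 are not taken as every mouse promoter, and members or promoters outside them were not counted. The GLI consensus GACCACCCA, the site of the Hedgehog transcription factors, was in no promoter of these 25 members and in 0.253% of the 32851 promoters. The letters of the TCF core CTTTGAT were in promoters of 2 members (3.73% of the 32851 promoters). Those of the TATA box TATAAA were in 3 members, Fzd1 among them (13.6%), and those of the E-box CANNTG in 20 members (72.3%). These are matches of letters on either strand of this window. A member was counted where any of its listed promoters matched, while the shares of the 32851 are of single promoters. Wnt5b and Wnt11, the 2 members with the TCF core, had more than 1 promoter listed.

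The other Frizzled genes did not pass the test in either comparison with recombined cells. Fzd5 averaged 114 ± 33.5 CPM in recombined, 71.8 ± 22.8 CPM in unrecombined and 93.4 ± 41.5 CPM in wild type cells (SD, n = 4 each). Fzd6, which acts in planar cell polarity, averaged 56.7 ± 28.0, 34.4 ± 5.71 and 41.0 ± 3.48 CPM in recombined, unrecombined and wild type cells. Fzd4, the receptor of Norrin as well as of Wnts, averaged 12.7 ± 7.62, 19.6 ± 5.24 and 19.4 ± 7.42 CPM in the same order. Their groups overlapped, and the log2 fold changes in recombined against wild type cells were 0.28 ± 0.308 for Fzd5, 0.47 ± 0.286 for Fzd6 and -0.61 ± 0.453 for Fzd4 (adjusted p = 0.663, 0.396 and 0.497). Against unrecombined cells Fzd5 was called with the replicate block and only those 2 groups, and not with the block over all 12 libraries.

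Fzd2, Fzd8 and Fzd10 were present at a few CPM. Fzd2 averaged 6.98 ± 9.0 CPM in recombined cells, a mean set by 20.4 CPM in library 4, against 3.84 ± 2.47 CPM in unrecombined and 2.14 ± 1.42 CPM in wild type cells. Fzd8 averaged 5.07 ± 3.54, 2.51 ± 1.01 and 2.49 ± 0.246 CPM, and Fzd10 averaged 2.60 ± 1.44, 3.78 ± 2.5 and 4.53 ± 1.85 CPM in recombined, unrecombined and wild type cells. The log2 fold changes in recombined against wild type cells were 1.70 ± 0.951 for Fzd2, 1.02 ± 0.498 for Fzd8 and -0.80 ± 0.588 for Fzd10 (adjusted p = 0.34, 0.268 and 0.494). Over the 9 tested Frizzled genes, 3 were called higher and none lower against wild type (4.17% and 2.38% of all loci), and the median log2 fold change was 1.02.

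Levels of different genes were set side by side per kilobase of exon, with lengths from a GRCm38 annotation. The summed level of the 10 Frizzled genes was 111, 142, 221 and 259 CPM per kilobase in recombined libraries, 65.5, 61.6, 65.7 and 81.2 in unrecombined libraries, and 67.8, 67.2, 65.0 and 62.7 in wild type libraries. Its mean was 183 ± 68.5 CPM per kilobase in recombined cells, 68.5 ± 8.67 in unrecombined cells and 65.7 ± 2.32 in wild type cells. The recombined group was both higher and more spread than the others. Fzd7 made up 47.0% ± 3.42 of the sum in recombined, 28.6% ± 4.10 in unrecombined and 34.9% ± 5.56 in wild type cells, on average the highest share per kilobase in each group, although Fzd5 exceeded it in wild type library 2 (33.3% against 29.1%). Fzd1 made up 23.1% ± 3.51, 23.7% ± 3.85 and 11.2% ± 1.73 in recombined, unrecombined and wild type cells, so its share was similar in both groups from Cre-bearing mice. Fzd5 made up 10.1% ± 4.86, 15.6% ± 5.85 and 20.5% ± 8.73 in the same groups, and Fzd6 made up 7.14% ± 2.53, 11.5% ± 1.78 and 14.3% ± 1.66. Together, Fzd1, Fzd3 and Fzd7 held 79.6% ± 7.06 of the Frizzled sum in recombined, 64.7% ± 6.90 in unrecombined and 57.0% ± 7.90 in wild type cells.

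**Figure D4:**
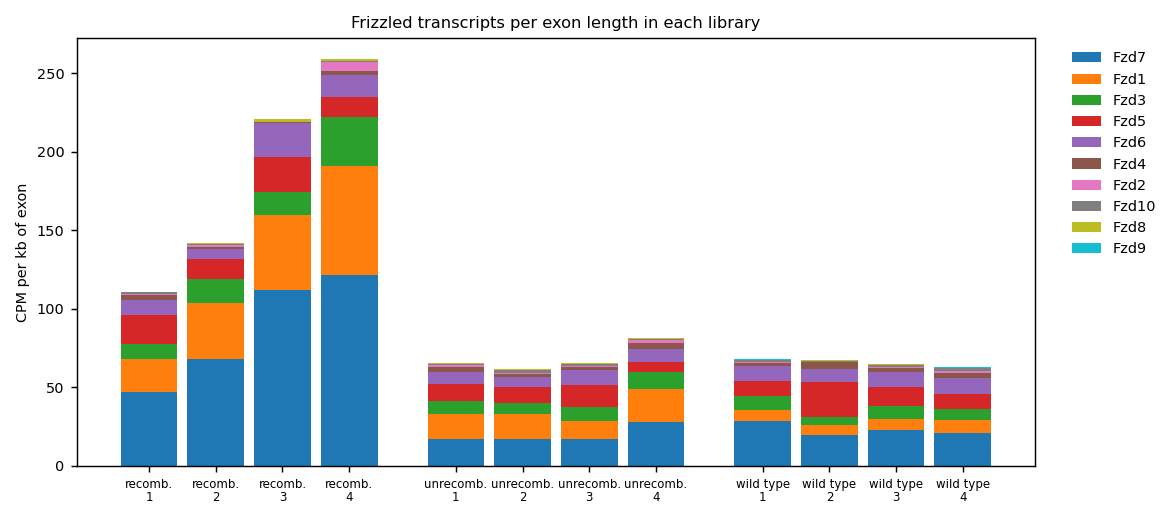
Level per kilobase of exon (y axis) of each Frizzled gene, stacked, in each of the 12 libraries. The recombined stacks reach 111 to 259 CPM per kilobase and are mostly Fzd7 and Fzd1, the unrecombined stacks reach 61.6 to 81.2 and the wild type stacks 62.7 to 67.8.

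The co-receptors Lrp5 and Lrp6 were expressed in every library. Lrp6, the more abundant per kilobase, had 348, 418, 639 and 309 CPM in recombined libraries, 326, 316, 402 and 348 CPM in unrecombined libraries and 318, 347, 326 and 360.4 CPM in wild type libraries. The groups overlapped, and recombined library 4 was the lowest of all 12. Its log2 fold change was 0.34 ± 0.195 in recombined against wild type cells (adjusted p = 0.35) and 0.30 ± 0.195 against unrecombined cells (adjusted p = 0.46).

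Lrp5 had 40.6, 55.4, 80.7 and 80.9 CPM in recombined libraries, 29.4, 41.1, 42.4 and 35.5 CPM in unrecombined libraries and 31.9, 50.2, 37.2 and 42.5 CPM in wild type libraries. Recombined libraries 2 to 4 lay above all others, and library 1 fell among them. The log2 fold change was 0.67 ± 0.233 in recombined against wild type cells (adjusted p = 0.112) and 0.80 ± 0.233 against unrecombined cells (adjusted p = 0.0686). Lrp5 was called without recombined library 1, both against wild type (0.84, adjusted p = 0.0258) and against unrecombined cells (0.96, adjusted p = 0.0143). Against unrecombined cells it was also called in both fits with the replicate block.

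The tyrosine kinase-like receptors Ror1 and Ror2, which bind Wnt5a, were higher in value in all 4 recombined libraries than in any wild type library without passing the edgeR test. Ror1 had 14.7, 13.3, 23.5 and 18.2 CPM in recombined libraries, 15, 6.66, 11.5 and 8.04 CPM in unrecombined libraries and 10.6, 3.13, 8.94 and 8.52 CPM in wild type libraries. Ror2 had 3.37, 6.19, 3.82 and 5.81 CPM in recombined libraries, 2.57, 1.20, 2.58 and 2.88 CPM in unrecombined libraries and 1.36, 2.98, 1.96 and 1.79 CPM in wild type libraries. For Ror1 the recombined and unrecombined libraries overlapped, and for Ror2 they did not. In recombined against wild type cells the log2 fold change was 1.16 ± 0.377 for Ror1 (adjusted p = 0.0879) and 1.24 ± 0.441 for Ror2 (adjusted p = 0.119). Both were called against wild type by DESeq2 (adjusted p = 0.0249 for Ror1 and 0.0334 for Ror2). Ror1 was also called with the replicate block over all 12 libraries (adjusted p = 0.0239) and with salivary transcripts as a covariate (adjusted p = 0.0233). Replicate numbers did not pair wild type with recombined libraries, so the block does not stand for a pairing in this comparison. Against unrecombined cells the log2 fold change was 0.76 ± 0.374 for Ror1 (adjusted p = 0.307) and 1.05 ± 0.438 for Ror2 (adjusted p = 0.215).

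Ryk, a Wnt receptor with a catalytically inactive kinase domain, had 44.2, 46.3, 56.4 and 73.1 CPM in recombined libraries. It had 34.1, 30.5, 34.8 and 43.4 CPM in unrecombined libraries and 37.1, 45.0, 39.3 and 45.1 CPM in wild type libraries. The recombined libraries lay above the unrecombined ones, the lowest at 44.2 CPM next to the highest unrecombined at 43.4 CPM, and overlapped the wild type ones. The log2 fold change was 0.62 ± 0.190 against unrecombined cells (adjusted p = 0.08) and 0.40 ± 0.189 against wild type cells (adjusted p = 0.251). Against unrecombined cells Ryk was called with the replicate block over all 12 libraries, and not with the block and only those 2 groups.

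Groups of 4 libraries did not overlap for 6 of 27 members in recombined against wild type cells, 22.2% against 12.2% of all loci tested. These were Fzd1, Fzd3, Fzd7, Ror1 and Ror2, all higher (18.5%, against 6.33% of all loci), and Wnt16, lower (3.70%, against 5.91% of all loci). Wnt16 passed the filter on low counts only with the wild type libraries, where it was high, so nothing is read from its place in these shares. In recombined against unrecombined cells it was 7 of 27, 25.9% against 11.3% of all loci: Fzd1, Fzd7, Ror2, Ryk and Wnt10a higher (5.57% of all loci), and Wnt2 and Wnt5a lower (5.71% of all loci). Wnt2 had no read in recombined libraries and passed the filter only through the other groups, so nothing is read from its place here.

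Wnt2, a ligand known from mesenchymal cells of several organs, had no read in any of the 4 recombined libraries. It had 16, 18, 57 and 33 reads in unrecombined libraries and 18, 0, 7 and 38 reads in wild type libraries. Wild type library 2 therefore also had none, and the wild type libraries with reads had 0.305 to 1.36 CPM. As the limit that a count of 0 allows, 3 reads were set over the recombined group, and the other groups were kept at their measured level. At this limit Wnt2 was 38.4-fold lower in recombined than in unrecombined cells and 20.5-fold lower than in wild type cells. The limit covers counting error of the recombined group only. The edgeR test gave adjusted p = 0.0236 against unrecombined and 0.0372 against wild type cells. Wnt2 passed the filter on low counts only through the groups where it had reads, so no support is drawn from these p values. Wnt2 entered the test against wild type only with the unrecombined libraries in the fit: with recombined and wild type libraries alone it had too few reads, as it had under a stricter filter in either comparison. The call against wild type was lost when any single library other than wild type 2 was left out (adjusted p = 0.0535 to 0.0978), and the call against unrecombined cells was lost without recombined library 4 (0.0503), unrecombined library 3 (0.0604) or unrecombined library 4 (0.0517). Against wild type the call was also lost by limma-voom and with the replicate block over all 12 libraries. Both calls were lost without recombined libraries 3 and 4, among the libraries numbered 23 alone, and in the 7 libraries low in salivary transcripts. Fibroblast markers were lower in the recombined group in the same direction as Wnt2, and their part in its result was not tested.

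Wnt5a and Wnt5b were the most abundant ligands. Wnt5a, named after its values were seen, is the ligand of Ror2 and had 14.5, 32.5, 17.7 and 28.4 CPM in recombined libraries, 36.8, 34.7, 48.7 and 33.3 CPM in unrecombined libraries and 24.2, 66.0, 43.8 and 67.8 CPM in wild type libraries. All recombined libraries lay below all unrecombined ones, and wild type library 1 lay among the recombined ones. The log2 fold change was -1.12 ± 0.326 in recombined against wild type cells (adjusted p = 0.0574) and -0.72 ± 0.324 against unrecombined cells (adjusted p = 0.256). Wnt5a was called against wild type by DESeq2 (adjusted p = 0.0152), with the replicate block over all 12 libraries (adjusted p = 0.0302), and without recombined library 2 (adjusted p = 0.0454) or wild type library 1 (adjusted p = 0.0167). The replicate numbers behind that block did not pair wild type with recombined libraries.

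Wnt5b, a close relative of Wnt5a, averaged 19.0 ± 4.06 CPM in recombined, 16.7 ± 5.55 CPM in unrecombined and 13.0 ± 2.31 CPM in wild type cells. Its log2 fold change in recombined against wild type cells was 0.55 ± 0.272 (adjusted p = 0.275), with overlapping groups. The summed level of the Wnt genes was 18.5 ± 3.08 CPM per kilobase in recombined, 17.1 ± 3.94 in unrecombined and 18.7 ± 4.06 in wild type cells. Wnt5a made up 17.8% of that sum in recombined, 32.2% in unrecombined and 37.4% in wild type cells, while Wnt5b made up 40.1%, 36.2% and 27.2% in the same groups. The summed ligand level per kilobase thus differed by less than the spread within each group. In CPM the sum was 68.4 ± 11.9 in recombined, 73.9 ± 15.1 in unrecombined and 86.9 ± 24.1 in wild type cells. Per kilobase, Wnt5b was on average ahead of Wnt5a in recombined and unrecombined cells and behind it in wild type cells. In CPM, Wnt5a was on average ahead in recombined cells too (23.3 against 19.0 CPM).

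Wnt10a, a ligand of beta-catenin signalling in skin and teeth, had 4.15, 0.659, 1.29 and 8.94 CPM in recombined libraries. It had 0.289, 0.151, 0.0359 and 0.509 CPM in unrecombined libraries and 1.05, 0, 1.35 and 0.501 CPM in wild type libraries. The recombined libraries lay above the unrecombined ones, but ranged from 0.659 to 8.94 CPM among themselves and overlapped the wild type ones. The log2 fold change was 3.90 ± 1.18 against unrecombined cells (adjusted p = 0.0782) and 2.37 ± 1.10 against wild type cells (adjusted p = 0.24). Against unrecombined cells Wnt10a was called with the replicate block and only those 2 groups, and not with the block over all 12 libraries.

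Wnt16 had 0.298, 0.842, 0.430 and 0.247 CPM in recombined libraries, 0.109, 0.376, 0.215 and 0.271 CPM in unrecombined libraries and 1.43, 1.39, 0.915 and 0.859 CPM in wild type libraries. The wild type libraries lay above all 8 libraries from Cre-bearing mice. The log2 fold change was -1.33 ± 0.707 in recombined against wild type cells (adjusted p = 0.314) and -2.22 ± 0.731 in unrecombined against wild type cells (adjusted p = 0.874). Its counts were between 3 and 42 reads per library.

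The other tested ligands did not pass the test in any comparison. Wnt2b averaged 4.39 ± 3.59 CPM in recombined, 7.36 ± 1.52 CPM in unrecombined and 8.84 ± 3.89 CPM in wild type cells. Wnt4, the ligand known to act downstream of progesterone in the mammary gland, averaged 0.837 ± 0.524, 1.22 ± 0.450 and 1.58 ± 0.164 CPM in recombined, unrecombined and wild type cells. Wnt7b, counted together with AK159003, averaged 6.56 ± 3.58, 5.26 ± 1.55 and 6.70 ± 2.49 CPM, and Wnt11 averaged 4.21 ± 3.39, 1.56 ± 0.664 and 2.14 ± 0.333 CPM. Wnt6 averaged 3.06 ± 3.44, 0.663 ± 0.805 and 0.880 ± 1.06 CPM, and Wnt9a averaged 2.62 ± 3.95, 0.753 ± 0.563 and 0.674 ± 0.445 CPM. The SD of Wnt6 and Wnt9a in recombined cells exceeded the mean, because recombined library 4 held 7.99 CPM of Wnt6 and 8.52 CPM of Wnt9a. In recombined against wild type cells the log2 fold changes were -1.01 ± 0.645 for Wnt2b, -0.90 ± 0.647 for Wnt4, -0.03 ± 0.422 for Wnt7b, 0.97 ± 0.552 for Wnt11, 1.79 ± 1.28 for Wnt6 and 1.95 ± 1.05 for Wnt9a, with adjusted p between 0.32 and 0.98. Of the 11 tested ligands, 1 was called lower and none higher against wild type (2.38% and 4.17% of all loci), and their median log2 fold change was -0.03. The call is that of Wnt2, which had no read in recombined libraries, so nothing is read from this count.

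**Figure D5:**
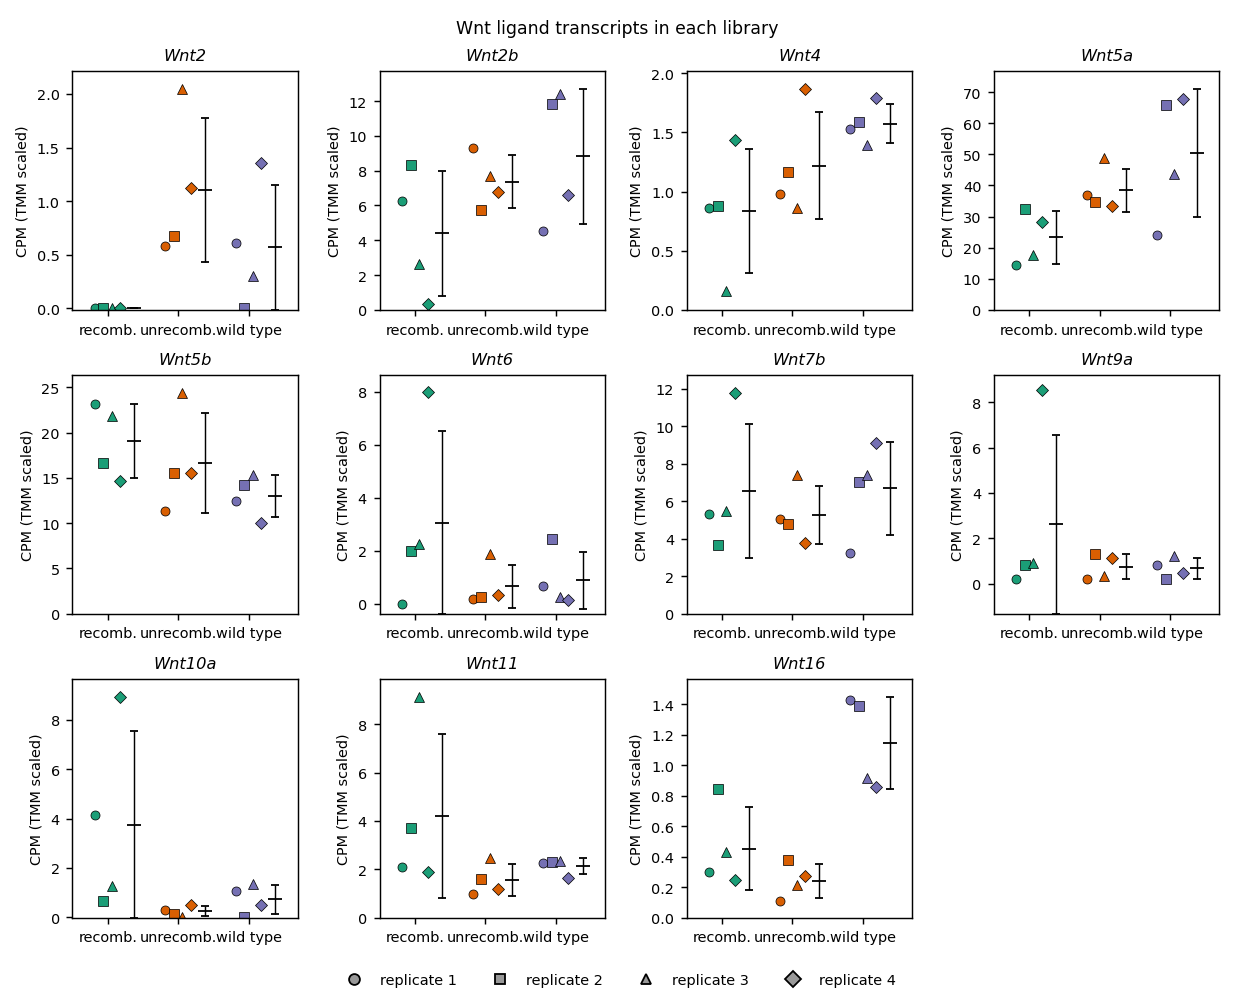
CPM of the 11 tested Wnt genes in each library, with the mean and SD of each group (bars) and a symbol for each replicate number. Wnt2 is at 0 in all 4 recombined libraries, Wnt5a is lower in every recombined library than in any unrecombined one, and Wnt16 is highest in the wild type libraries.

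The genes of ligand export did not differ beyond the spread between libraries. Porcn, counted together with Mporc-b, had 2.21, 3.48, 5.38 and 2.97 CPM in recombined libraries, 3.80, 2.52, 1.97 and 2.82 CPM in unrecombined libraries and 4.02, 2.24, 2.35 and 5.23 CPM in wild type libraries. Wls had 35.1, 39.5, 62.0 and 40.5 CPM in recombined libraries, 43.9, 43.5, 34.6 and 44.4 CPM in unrecombined libraries and 36.5, 23.1, 52.0 and 64.4 CPM in wild type libraries. All 3 groups overlapped for both genes. The log2 fold change in recombined against wild type cells was 0.02 ± 0.440 for Porcn (adjusted p = 0.991) and 0.01 ± 0.277 for Wls (adjusted p = 0.992), and against unrecombined cells it was 0.33 ± 0.441 (adjusted p = 0.76) and 0.09 ± 0.277 (adjusted p = 0.911).

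Too few reads for a test were found for 9 members: Wnt1, Wnt3, Wnt3a, Wnt7a, Wnt8a, Wnt8b, Wnt9b, Wnt10b and Fzd9. Their totals over all 12 libraries were between 1 read, for Wnt3a and Wnt8a, and 59 reads, for Fzd9. Each had reads in 1 to 9 libraries, and the highest count in any library was 21, of Fzd9 in recombined library 4. At these counts a difference between the groups was not detectable. Entries that name several loci at once and include a member held 2 to 9 reads per library in all and were left out.

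In unrecombined against wild type cells, no member and no locus was called by edgeR, and 541 of 14039 loci had an unadjusted p under 0.05. These groups share their colour and differ in whether the mouse carried Cre. Their fibroblast marker sums also did not overlap (5932 to 7818 against 2681 to 3877 CPM). Of 15 fibroblast markers, 14 were higher in value in unrecombined cells (median log2 fold change 1.19), none of them called. The part of this difference in the values below was not tested. By DESeq2, 78 loci and 1 member, Fzd1, were called. The groups did not overlap for 2 of 27 members, Fzd1 higher (2.86% of all loci) and Wnt16 lower (1.55% of all loci), 7.41% against 4.42% of all loci in both directions. Wnt16 passed the filter on low counts only with the wild type libraries, so nothing is read from its place in these shares. Fzd7 was 0.864-fold, Fzd3 1.19-fold and Lrp6 1.03-fold in unrecombined relative to wild type cells, with overlapping libraries for each. The median log2 fold change of the tested members was -0.21 and that over all loci -0.0021.

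Other genes of the pathway were described in lists, beside which 4.17% of all loci were called higher and 2.38% lower against wild type, and 3.08% higher and 2.14% lower against unrecombined cells. Of 10 tested secreted inhibitors, 2 were called higher and 3 lower in recombined than in wild type cells, and 2 higher and 4 lower than in unrecombined cells. Wif1, which binds Wnt ligands outside the cell, averaged 282 ± 142 CPM in recombined, 23.4 ± 13.3 CPM in unrecombined and 6.26 ± 3.09 CPM in wild type cells (log2 fold change against wild type 5.49 ± 0.618, adjusted p = 0.000282). Dkk3, a secreted protein of the Dickkopf family, averaged 89.8 ± 41.0, 39.6 ± 5.43 and 31.7 ± 7.42 CPM (1.5 ± 0.305, adjusted p = 0.00982). Sfrp4, a secreted Frizzled-related protein, had 0, 1, 1 and 0 reads in recombined libraries, 160, 60, 216 and 119 reads in unrecombined and 202, 23, 208 and 615 reads in wild type libraries (adjusted p = 0.000515 against wild type). Igfbp4, an insulin-like growth factor binding protein that also inhibits Wnt receptors, averaged 15 ± 1.98 CPM in recombined, 90.4 ± 17.7 CPM in unrecombined and 41.7 ± 11.1 CPM in wild type cells (-1.48 ± 0.221, adjusted p = 0.00141). Sfrp4 and Dkk2 (5, 0, 1 and 12 reads in recombined libraries) passed the filter on low counts only through the other groups. Nothing is read from their place in these counts. The other genes called against wild type were Wif1 and Dkk3, higher, and Igfbp4, lower. The median log2 fold change of the list against wild type, with Sfrp4 and Dkk2 kept, was -0.91.

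Of 15 tested genes that act on the receptors, 4 were called higher and 1 lower in recombined cells, in each of the comparisons with wild type (4.17% and 2.38% of all loci) and unrecombined cells (3.08% and 2.14%). The R-spondin receptor Lgr4 averaged 172 ± 58.7 CPM in recombined, 49.3 ± 15.3 CPM in unrecombined and 47.4 ± 10.4 CPM in wild type cells (log2 fold change against wild type 1.86 ± 0.279, adjusted p = 0.00148). Its relative Lgr6 averaged 63.6 ± 26.6, 19.0 ± 5.43 and 16.9 ± 4.88 CPM (1.91 ± 0.305, adjusted p = 0.00219). Lgr5, a further R-spondin receptor and itself a Wnt target, had 37.1, 95, 85.7 and 119 CPM in recombined libraries, 6.19, 9.22, 35.6 and 26.4 CPM in unrecombined and 22.0, 14.7, 26.7 and 19.0 CPM in wild type libraries (2.03 ± 0.494, adjusted p = 0.0248). Gpr124, a co-activator of Wnt7 signalling known from brain vessels and counted together with Tem5, its other symbol, averaged 0.654 ± 0.469 CPM in recombined, 5.25 ± 0.993 CPM in unrecombined and 3.80 ± 0.680 CPM in wild type cells (-2.52 ± 0.507, adjusted p = 0.00942). The fourth gene called higher was Rnf43, a ubiquitin ligase that removes Frizzled receptors from the surface, against wild type (1.06 ± 0.299, adjusted p = 0.0497), and Ptk7 against unrecombined cells (1.10 ± 0.248, adjusted p = 0.0183).

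Of 24 tested cytoplasmic genes, which include the Dvl, Axin, Apc and Gsk3 genes and Ctnnb1, 2 were called higher in recombined cells than in wild type cells, and of 15 nuclear genes and 15 planar polarity genes 1 each, where 4.17% of all loci were called higher. With so few calls nothing is read from these 3 counts. Btrc and Fbxw11, both among the 24, share 1 entry. Nkd1 and Nkd2, inhibitors of Dvl that are also Wnt targets, averaged 22.2 ± 14.2 CPM and 34.8 ± 23.1 CPM in recombined, 4.61 ± 2.09 CPM and 11.9 ± 1.52 CPM in unrecombined, and 4.14 ± 0.377 CPM and 7.56 ± 3.72 CPM in wild type cells. Their log2 fold changes against wild type were 2.42 ± 0.494 and 2.20 ± 0.447 (adjusted p = 0.0099 and 0.00984). The nuclear gene was the co-repressor Tle1 (0.86 ± 0.174, adjusted p = 0.00942) and the planar polarity gene was Prickle2 (1.68 ± 0.245, adjusted p = 0.0012). Of 16 tested Wnt target genes, 5 were called higher and none lower against wild type (Nkd1, Nkd2, Lgr5, Rnf43 and Cd44), 4 of which also stand in the other lists, and 2 were called higher against unrecombined cells (4.17% and 3.08% of all loci). The median log2 fold change of the target list against wild type was 1.00, and that over all loci was -0.02. In unrecombined against wild type cells no gene of these 6 lists was called.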

How the data were processed

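The deposited values are raw counts of reads per gene in 12 libraries, per the file headers, and they are whole numbers. Per the submitters' processing notes, STAR and HTSeq 0.3.1 were used with build mm9. Strand setting and annotation are not given in the sources used here, so reads of a gene cannot be separated from those of an overlapping or antisense gene. Of 36635 entries, the 20114 that name 1 locus were analysed.

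Total counts per library were 19581993 to 34779433. Loci were filtered with the default of edgeR (minimum count 10), which left 14039. Counts were scaled by TMM (trimmed mean of M values, which adjusts library sizes) and tested with the edgeR 4.0.16 quasi-likelihood F test (R 4.3.3, robust), fitting group means to all 12 libraries at once. The two-sided p was adjusted over all loci tested after Benjamini and Hochberg, with a threshold of 0.05. Fold changes are given as log2 with their SE, and CPM as mean and SD over 4 libraries. The lengths behind levels per kilobase are unions of exons of a GRCm38 annotation, matched by symbol, and may differ from those used by the authors.

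Values per library are given for members past the threshold, for members whose groups did not overlap with a log2 fold change of at least 1 in size in a comparison with recombined cells, and for Lrp5, Lrp6, Ryk, Porcn and Wls. From each pathway list, up to 4 called genes with the smallest p are named. Genes outside this rule are Wnt5a and, from the lists, Dkk2, Rnf43, Ptk7 and Cd44, named after their values were seen. The members and lists were chosen with earlier results of these data known.

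Whether replicate numbers pair libraries was tested by correlating, over loci, how libraries deviate from their group mean. For recombined and unrecombined libraries of 1 number r was 0.239, 0.399, 0.244 and 0.298, and for different numbers it was -0.24 to -0.0345, so the numbers pair these groups. Wild type libraries were not paired with recombined (r of -0.0314 to 0.185) or unrecombined ones (r of 0.00248 to 0.312). In all, 15 alternatives were set for each comparison, among them DESeq2 1.42.0, voom in limma 3.58.1, other scalings and filters, the replicate block, the library numbers and leaving out each library. A further one, chosen after seeing the data, kept the 7 libraries with under 1000 CPM of salivary gland transcripts.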

Additional observations from a re-analysis of the deposited data

Results flagged for a closer look

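Within a group of 4 libraries, 6 of the 81 groups checked held a library far from its other 3, and chance alone gives about 1 in 20, or 4.05 of 81. Recombined library 4 was high for Fzd2, at 20.4 CPM against 1.13 to 3.73 CPM in the others of its group, and for Wnt9a, at 8.52 CPM against 0.209 to 0.914 CPM. Unrecombined library 4 was high for Fzd7, at 127 CPM against 77.1 to 77.3 CPM. Unrecombined library 3 was low for Wls, at 34.6 CPM against 43.5 to 44.4 CPM, and high for Wnt6, at 1.87 CPM against 0.181 to 0.339 CPM. Wild type library 4 was low for Wnt11, at 1.65 CPM against 2.25 to 2.35 CPM.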

How the results depend on the processing

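Fzd1 against wild type and Fzd7 against unrecombined cells were called under every alternative run. Fzd7 against wild type was lost among the libraries numbered 23 alone, and Fzd1 against unrecombined cells there and without recombined libraries 3 and 4. In recombined against wild type cells, members called numbered 7 (loci 1617) by DESeq2, with Ror1, Ror2 and Wnt5a added, 2 (594) with only the 2 groups in the fit, 1 (75) in the libraries numbered 23, 2 (248) without recombined libraries 3 and 4, and 2 to 4 (502 to 1217) with 1 library left out. In recombined against unrecombined cells they numbered 7 (1349) by DESeq2, with Fzd3, Lrp5, Ryk and Wnt10a added, 1 (106) in the libraries numbered 23, 1 (283) without recombined 3 and 4, and 2 to 6 (449 to 1044) with 1 library left out. With 1 library left out, members called that were not called with all libraries were Lrp5 and Wnt5a against wild type and Fzd3, Fzd6, Lrp5, Ryk and Wnt10a against unrecombined cells. With the replicate block, 6 members were called against unrecombined cells in both of its fits (980 loci over all 12 libraries and 984 with only the 2 groups), and against wild type 5 members (1194) over all 12 libraries and 3 (609) with only the 2 groups. In unrecombined against wild type cells, DESeq2 called 1 member and 78 loci, limma-voom 18 loci, the fit of only the 2 groups 8, and the replicate block 1 and, with only the 2 groups, 18.

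No called member changed direction. Log2 fold changes that changed sign, none past the threshold, were in recombined against wild type cells those of Wnt7b (-0.48 to 0.17 with 1 library left out, and 0.42 in the 7 libraries low in salivary transcripts), Fzd6 (-0.16 in the libraries numbered 23 and -0.20 without recombined 3 and 4), Wnt6 (-0.17 in the libraries numbered 23) and Wnt9a (-0.49 in the libraries numbered 23, -0.36 without recombined 3 and 4 and -0.05 to 2.40 with 1 library left out, the lowest without recombined 4). Porcn had -0.06 with upper-quartile scaling, -0.07 by limma-voom, -0.05 with the number series as covariate, -0.01 in the libraries numbered 23, -0.29 without recombined 3 and 4, and -0.26 to 0.28 with 1 library left out. Wls had -0.07 with upper-quartile scaling, -0.06 with the series as covariate, -0.24 without recombined 3 and 4, and -0.20 to 0.25 with 1 library left out. Against unrecombined cells Porcn had -0.14 and Wls -0.22 in the libraries numbered 23, and Wls had -0.15 without recombined 3 and 4 and -0.10 to 0.18 with 1 library left out. In the same comparison Fzd2 had -0.26 in the libraries numbered 23, -0.27 without recombined 3 and 4 and -0.61 without recombined 4, Wnt9a -0.51, -0.51 and -0.21, and Wnt7b -0.13, -0.23 and -0.13, while Wnt5b had -0.11 in the 7 libraries low in salivary transcripts. In unrecombined against wild type cells 12 of the 27 members changed sign under some alternative, with log2 fold changes of at most 0.41 in size as reported. The cause was not tested. Wnt2 had too few reads for a value under the stricter filter and, against wild type, in fits of only those 2 groups. Low counts limit Wnt2 (187 reads over all 12 libraries) and Wnt16 (197).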
